A study of Mus musculus with 22 samples.

Results

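The region described here is the distal end of mouse chromosome 1, taken as all array probes whose midpoint lies between 156 and 195 Mb of the coordinates in the array files. It held 4023 of the 16095 probes on chromosome 1 and of the 220065 autosomal probes, with a median spacing of 7609 bp, and the last probe ended at 194916389. The window was chosen by the log2 ratios of these same arrays, in which a gain of it had been seen, so these ratios and the difference between the groups over it are given as a description without a test. Genomic DNA of thymocytes was measured by array comparative genomic hybridisation, in which labelled sample DNA and labelled reference DNA compete for the same probes. Each of 22 arrays held DNA of 1 Atm-deficient mouse, labelled with Cy5, against DNA of wildtype thymocytes, labelled with Cy3. Of these mice, 8 had a thymic lymphoma and 14 were without findings to the naked eye. All 22 were Atm-deficient and untreated, and diseased animals were killed. The labels give neither strain, age and sex nor the altered part of Atm, and a control group of mice with intact Atm enters only as the reference channel. Per the labels the dye orientation was the same on all arrays, so dye and genotype cannot be told apart. DNA copy number carries no marker of expression, so the cell type rests on the label.

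A gained chromosome segment adds copies of every gene on it, and in T-cell tumours such gains are read as regions that may hold growth-promoting genes among many passengers. Atm is the kinase that signals DNA breaks, including those made when thymocytes join their antigen receptor genes, and mice without it are known for thymic lymphomas. Distal chromosome 1 carries genes of several thymocyte systems. Ncstn (nicastrin) and Psen2 (presenilin 2) encode subunits of gamma-secretase, the protease that frees the active part of Notch receptors. Cd247 encodes the zeta chain of the T-cell receptor complex, and Parp1 a polymerase that marks broken DNA for repair. The region also carries the SLAM family of lymphocyte surface receptors.

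The probes at which the gains began or ended, and 1 probe from the middle of each of the 4 genes just named, are shown first because the boundaries and gene values below are read from such oligonucleotides. All bases are in lower case, since the DNA was cut with AluI and RsaI and the 10 probes shown hold neither recognition site (AGCT and GTAC). Of the 4023 probes, 3 held AGCT and 0 held GTAC, or 0.0746% against 0.035% of all autosomal probes. The array files give these sequences of 45 to 60 bases without a strand. Build of the coordinates: not given in the sources used here.
Last probe before the common core, chr1:168845887-168845946: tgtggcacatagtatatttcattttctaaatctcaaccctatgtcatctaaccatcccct
First probe of the common core, chr1:168877001-168877060: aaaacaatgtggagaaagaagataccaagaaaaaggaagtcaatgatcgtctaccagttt
Last probe of the common core, chr1:180923809-180923868: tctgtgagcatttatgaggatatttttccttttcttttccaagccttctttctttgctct
First probe after the common core, chr1:180928453-180928510: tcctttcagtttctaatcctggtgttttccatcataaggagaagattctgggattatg
First probe of the gain in lymphoma mouse 5, chr1:131827871-131827930: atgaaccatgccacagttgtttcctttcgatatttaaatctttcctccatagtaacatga
First probe of the gain in no-lymphoma mouse 2, chr1:131854973-131855032: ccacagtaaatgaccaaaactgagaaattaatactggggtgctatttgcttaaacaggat
Cd247, chr1:165798321-165798380: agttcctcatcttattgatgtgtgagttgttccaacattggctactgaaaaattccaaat
Ncstn, chr1:172046186-172046245: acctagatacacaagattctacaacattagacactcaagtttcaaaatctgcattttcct
Psen2, chr1:180217186-180217243: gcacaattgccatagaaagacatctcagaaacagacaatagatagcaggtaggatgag
Parp1, chr1:180565917-180565975: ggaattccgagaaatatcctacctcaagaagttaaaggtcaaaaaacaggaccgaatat

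Each value is a log2 ratio (Atm-deficient over wildtype), centred on the array's autosomal median, and group values are mean ± SD over mice. The noise of neighbouring probes ran from 0.15 to 0.37 in lymphoma arrays and from 0.13 to 0.55 in the others. The arrays labelled no-lymphoma mouse 3, 4 and 9 were the noisiest and correlated at 0.82 to 0.87 with each other. In 8 of 231 pairs of arrays, all with at least 1 member of no-lymphoma 3, 4 or 9, r over autosomal probes lay under -0.3, the lowest being -0.48. Of 12 probes in Atm, the targeted gene, the 1 farthest from 0 (chr9:53461029-53461088) was positive in 8 of 8 lymphoma and 11 of 14 no-lymphoma arrays. It was negative, at -1.08, -0.72 and -0.63, on those labelled no-lymphoma mouse 1, 3 and 4, which make up scan batch 2. Since the labels name both dyes on each array, directions follow the labels, and the differences over the window, of the 4 named genes and before the window are also given with signs turned. Scan batches, read from the file headers, numbered 6, and batches 2 and 4 held no-lymphoma arrays only.

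The distal end of chromosome 1 was gained in 5 of 8 lymphoma arrays, those of mice 3, 4, 5, 6 and 8, and in 2 of 14 no-lymphoma arrays, those of mice 2 and 11. A gain was called where a segment mean reached 0.25, and 1 extra copy in all cells would give 0.58. The mean over the window was 0.60 in lymphoma mouse 3, 0.54 in mouse 5, 0.41 in mouse 6, 0.32 in mouse 8 and 0.24 in mouse 4. It was -0.01, 0.01 and 0.03 in lymphoma mice 1, 2 and 7, which lay level with the no-lymphoma arrays without a gain. No-lymphoma mouse 11 read 0.77, the highest of all 22, and mouse 2 read 0.56, while the other 12 lay between -0.05 and 0.04. The groups therefore overlapped at both ends, at 0.27 ± 0.24 (SD, n = 8) and 0.09 ± 0.25 (SD, n = 14), a difference of 0.18. In bulk DNA, fewer cells with a gain and fewer added copies per cell cannot be told apart.

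Within scan batches the difference over the window was -0.29 in batch 1, 0.27 in batch 3, 0.07 in batch 5 and 0.18 in batch 6. The sign in batch 1 was the opposite of the overall one: its no-lymphoma array is mouse 2, which carries the gain, and lymphoma mouse 1, in the same batch, does not. With the batch as a block the difference was 0.07. After the sign was turned it was 0.16 for scan batch 2 and also 0.16 for no-lymphoma 3, 4 and 9.

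The extent of the gain differed from array to array, as the plot of log2 ratios along the chromosome shows. In lymphoma mouse 5 it ran from 131827871 to the last probe at 194916389 as one block at 0.54. In no-lymphoma mouse 2 it ran from 131854973 to the last probe at 0.55. These starts lay 27.1 kb apart. The intervals that held each break did not overlap: 131820082 to 131827871 for lymphoma mouse 5, inside Nucks1, and 131846614 to 131854973 for no-lymphoma mouse 2, before Slc45a3. Both gains thus began before the window and left no part of it out.

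**Figure D1:**
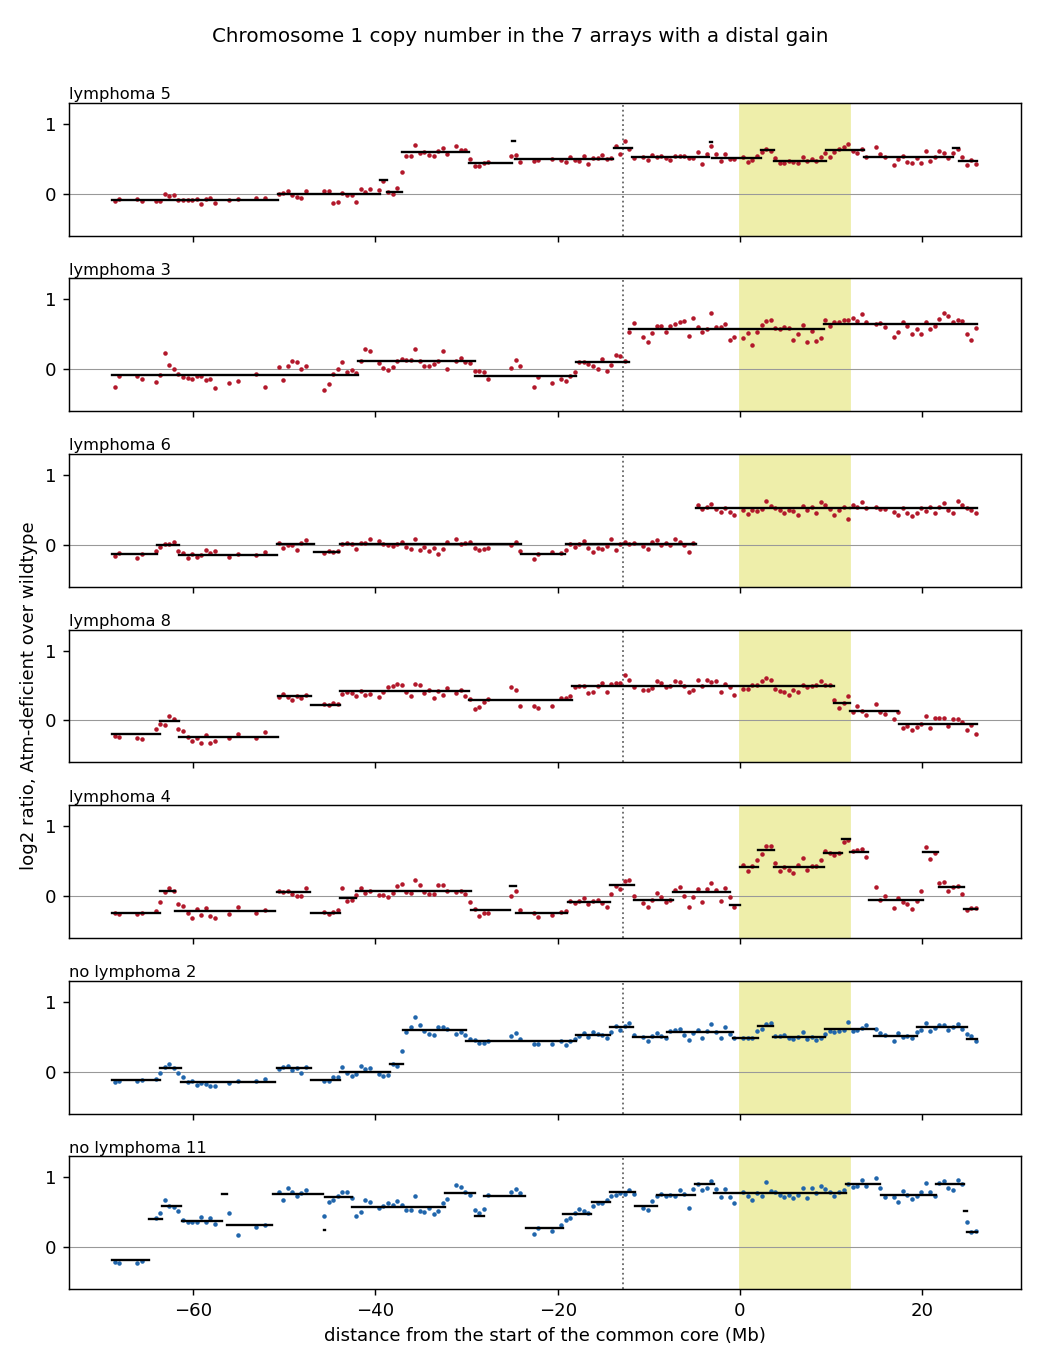
Log2 ratio (vertical axis) along chromosome 1 against the distance from the start of the common core (Mb) in the 7 arrays with a distal gain. Points are means of 500 kb bins with at least 20 probes, black lines segment means, the shaded band the common core and the dotted line the start of the window. Gains in lymphoma mice 3, 5 and 6 and no-lymphoma mouse 2 reach the last probe, whereas that of lymphoma mouse 8 falls in steps and lymphoma mouse 4 has 2 separate gains.

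Lymphoma mouse 3 was gained from 156696420, next to Fam20b, a kinase of proteoglycan synthesis, to the last probe, at 0.61. In lymphoma mouse 6 the gain began at 164008791, just before the selectin gene Sele, and reached the last probe at 0.51. It was broken only by 5 probes over Tmem63a, a membrane channel gene. The break of lymphoma mouse 6 was placed within 163997664 to 164008791, and that of lymphoma mouse 3 within 156671365 to 156703191. In no-lymphoma mouse 11 the gain covered 123342024 to 193779168 at 0.71, after a further gained stretch from 104072122 to 123163209 at 0.54. The 22 probes between these read 0.24, just under the threshold, so values were raised from 104072122 on. The segment means of this array inside the window lay between 0.52 and 0.91 as far as 193779168, and the last 123 probes read 0.22, under the threshold.

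The gain of lymphoma mouse 8 did not reach the end of the chromosome and fell off in steps. From 150480914 to 179166509 its segment mean was 0.50, and from 179174063 to 180987924 it was 0.25, just inside the threshold. Beyond that it was 0.13 up to 186273681 and -0.05 from there to the last probe. The called gain therefore ended at 180987924, in Ephx1, an epoxide hydrolase gene, with the break within 180953716 to 181001092. It had begun at 125008013, after a gained stretch from 118158647 to 121752500 at 0.34. The 203 probes between these read 0.22, just under the threshold, so values were raised from 118158647 on. The segment before that read -0.24.

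Lymphoma mouse 4 had the shortest gain, and it both began and ended inside the window. It ran from 168877001 to 182974742, or 14.1 Mb at 0.55, and ended before Susd4. Segment means inside it ranged from 0.41 to 0.82. A second gain followed from 188969032, near the potassium channel gene Kcnk2, to 190646804, near the kinetochore gene Nsl1, at 0.63. Between them 478 probes read -0.05. The lengths gained inside the window were 38.9 Mb in lymphoma mouse 5 and no-lymphoma mouse 2, 38.2 Mb in lymphoma mouse 3, 37.8 Mb in no-lymphoma mouse 11, 30.9 Mb in lymphoma mouse 6, 25.0 Mb in lymphoma mouse 8 and 15.8 Mb in lymphoma mouse 4.

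**Figure D2:**
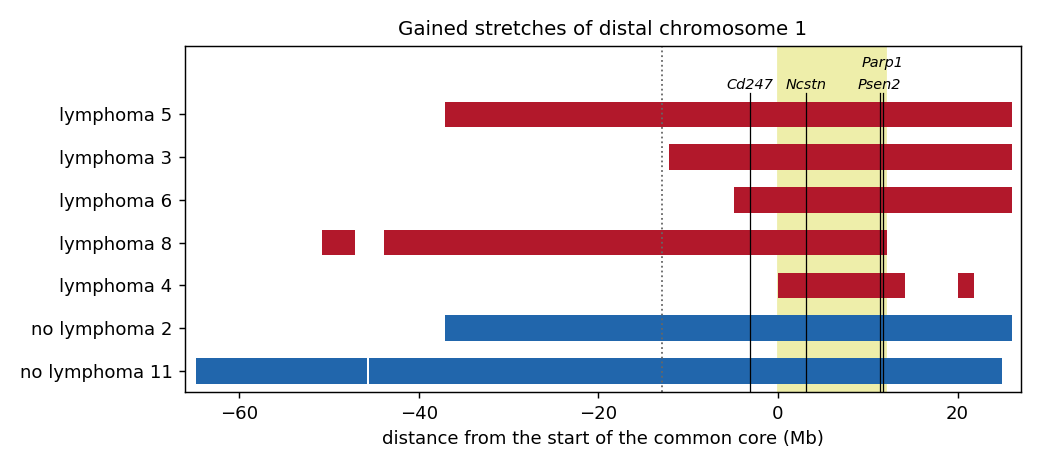
Gained stretches of chromosome 1 (segment mean of at least 0.25) in the 7 arrays, drawn to scale as the distance from the start of the common core (Mb). Red bars are lymphoma and blue bars no-lymphoma arrays, the shaded band is the core, the dotted line the start of the window and the black lines mark 4 genes. Cd247 lies before the core and the other 3 genes inside it.

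The 7 gains shared 2 stretches. The longer, called the common core here, ran from 168877001 to 180923868, or 12.05 Mb with 1375 probes. The shorter lay beyond the dip in lymphoma mouse 6, from 180958673 to 180987924. Its start was set by lymphoma mouse 4, where the 10 probes before the first core probe averaged -0.11 and the 10 after it 0.42. Its end was set by the dip over Tmem63a in lymphoma mouse 6, and lay shortly before the end of the gain in lymphoma mouse 8. Over the core the lymphoma arrays with the gain read 0.58 in mouse 3, 0.53 in mouse 4, 0.54 in mouse 5, 0.50 in mouse 6 and 0.45 in mouse 8. No-lymphoma mouse 2 read 0.55 and mouse 11 read 0.78. Lymphoma mice 1, 2 and 7 read between -0.03 and 0.02, and the other 12 no-lymphoma mice between -0.04 and 0.04. No array lay between 0.04 and 0.45, but the core was drawn from the gains called in these arrays, so a gap was built in. Over the whole window the gap was narrower, from 0.04 in no-lymphoma mouse 13 to 0.24 in lymphoma mouse 4.

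The end of the core depended on the segmentation. With a penalty of 5 or of 2 in place of 3, or a gain threshold of 0.35, it ended at 179166509 instead, the step in lymphoma mouse 8. That leaves 10.3 Mb with Ncstn inside and Psen2 and Parp1 outside. Under normexp background correction the stretch gained in most lymphoma arrays shrank to 5 probes (171488631 to 171516169), covered in 6 lymphoma and 5 no-lymphoma arrays.

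Chromosome 15, gained in most of these lymphomas, gives a second measure of the same arrays. The lymphoma arrays with a distal chromosome 1 gain had chromosome 15 medians of 0.52, 0.54, 0.57, 0.51 and 0.15 (mice 3, 4, 5, 6 and 8). Those without it read 0.53, 0.42 and 0.47 (mice 1, 2 and 7). The gained arrays thus span 0.15 to 0.57, and mice 1, 2 and 7 lie inside that span. Its low end is mouse 8 alone. The other gained arrays read 0.51 to 0.57, a range that holds mouse 1 and lies above mice 2 and 7. In the no-lymphoma group mouse 11 had both gains, with chromosome 15 at 0.47, whereas mouse 2 had the distal chromosome 1 gain with chromosome 15 at 0.00. Each of the 2 changes was thus found in at least 1 array without the other.

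**Figure D3:**
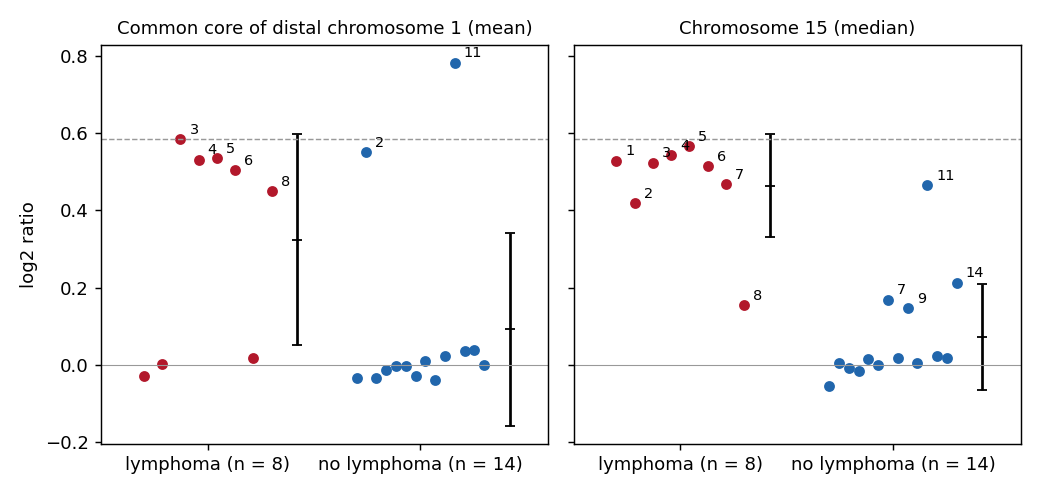
Mean log2 ratio of the common core (left) and median log2 ratio of chromosome 15 (right) in each array. Points are mice, numbered where the value is beyond 0.1, bars at the side are mean and SD per group, and the dashed line marks 3 copies over 2 in all cells. Core values fall in a low set up to 0.04 and a high set from 0.45, and no-lymphoma mouse 2 is high on the left and at 0.00 on the right.

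The window held 462 genes, 252 of them with at least 3 probes, of which 60 carry a clone or accession name only. Of these 252 genes, 87 lay under a gain in 5 lymphoma arrays, 65 in 4, 90 in 3 and 10 in 2. Over all autosomal genes, 7.35% were gained in at least 3 lymphoma arrays, 6.41% in at least 4 and 5.75% in at least 5. The window had 242 of 252 genes in at least 3 and 87 in at least 5, and since the window was chosen for this gain the counts describe it and are no evidence for it. In the no-lymphoma arrays 245 of the 252 genes were gained in at least 2, against 4.52% of all genes. A limma fit over all 12974 autosomal genes with at least 3 probes called 6.67% higher and 2.51% lower in lymphoma (Benjamini-Hochberg adjusted p under 0.05), or 7.66% and 0.709% with centring on the mode. It called 1 window gene higher, Slamf6, and 0 lower, and 62 had an unadjusted p under 0.05, against 26.1% of all genes. The difference was positive in 249 of the 252 genes, beside 67.6% of all genes, with a median of 0.20 against 0.05 for all genes. Slamf6 was called in 9 of 18 alternative settings. Nothing is read from these counts, as the rule used the same contrast.

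The gamma-secretase genes of the window both lie in the core. Ncstn, with 4 probes from 172038354 to 172051378, read 0.55, 0.77, 0.50, 0.52 and 0.59 in lymphoma mice 3, 4, 5, 6 and 8. It read 0.06, 0.07 and 0.13 in lymphoma mice 1, 2 and 7, clearly lower than in the other 5. In no-lymphoma arrays it was 0.99 in mouse 11 and 0.64 in mouse 2, with a lowest value of -0.19 and a median of -0.05, and the next highest was 0.43 in the noisy array labelled mouse 3. Group values were 0.40 ± 0.27 (SD, n = 8) and 0.11 ± 0.36 (SD, n = 14), a difference of 0.29, so the groups overlapped.

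Psen2, with 3 probes from 180212771 to 180225976, was more scattered. It read 0.35, 0.82, 0.54, 0.38 and 0.11 in lymphoma mice 3, 4, 5, 6 and 8, and 0.23, -0.03 and 0.00 in mice 1, 2 and 7. Lymphoma mouse 8, where Psen2 lies in the stretch at 0.25, read lower than mouse 1, which has no gain. No-lymphoma mice 2 and 11 read 0.58 and 0.48, and the others ranged from -0.63 to 0.43. The group values were 0.30 ± 0.29 (SD, n = 8) against 0.02 ± 0.34 (SD, n = 14).

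Parp1, with 5 probes from 180550814 to 180581277, was even across the gained lymphomas except in mouse 8. It read 0.78, 0.76, 0.72 and 0.71 in lymphoma mice 3, 4, 5 and 6, 0.39 in mouse 8, and 0.19, 0.22 and 0.25 in mice 1, 2 and 7. No-lymphoma mice 11 and 2 read 1.04 and 0.75, with the other 12 between -0.17 and 0.22. In 6 of the 7 gained arrays, all but lymphoma mouse 8, Parp1 lay above the mean of the core, by 0.18 to 0.26. In the 3 lymphoma arrays without a gain it also lay above the core, by 0.22, 0.22 and 0.24. The same held in no-lymphoma mice 5, 6, 7, 8, 10, 12 and 14, by 0.07 to 0.23, and in mouse 9, by 0.01. In no-lymphoma mice 1, 3, 4 and 13 Parp1 lay below the core mean. The group values were 0.50 ± 0.26 (SD, n = 8) against 0.18 ± 0.33 (SD, n = 14).

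Cd247, with 12 probes from 165759805 to 165837681, lies before the core and outside the gain of lymphoma mouse 4. It read 0.94, 0.74, 0.57 and 0.53 in lymphoma mice 3, 5, 6 and 8, and 0.23 in mouse 4, level with 0.07, 0.31 and 0.22 in mice 1, 2 and 7. In lymphoma mouse 3 single probes of Cd247 ran from 0.30 to 2.16, and in mouse 5 from 0.48 to 0.94, so its high mean in mouse 3 rests on a few probes. No-lymphoma mice 11 and 2 read 0.87 and 0.75, with the others between -0.26 and 0.27. Group values were 0.45 ± 0.29 (SD, n = 8) and 0.09 ± 0.34 (SD, n = 14). Within scan batch 1 the difference turned to -0.18 for Ncstn, -0.11 for Psen2, -0.17 for Parp1 and -0.34 for Cd247. For Parp1 it was also below 0 in batch 5, at -0.10, and for Psen2 it was -0.000377 in batch 6. With a block for the scan batch it was 0.24 for Ncstn, 0.18 for Psen2, 0.14 for Parp1 and 0.20 for Cd247, against 0.29, 0.28, 0.32 and 0.36 without it. Under normexp the Cd247 difference was 0.17. Turning the sign of scan batch 2 gave 0.35, 0.31, 0.27 and 0.32 in the same gene order, and turning no-lymphoma 3, 4 and 9 gave 0.42, 0.39, 0.29 and 0.28.

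**Figure D4:**
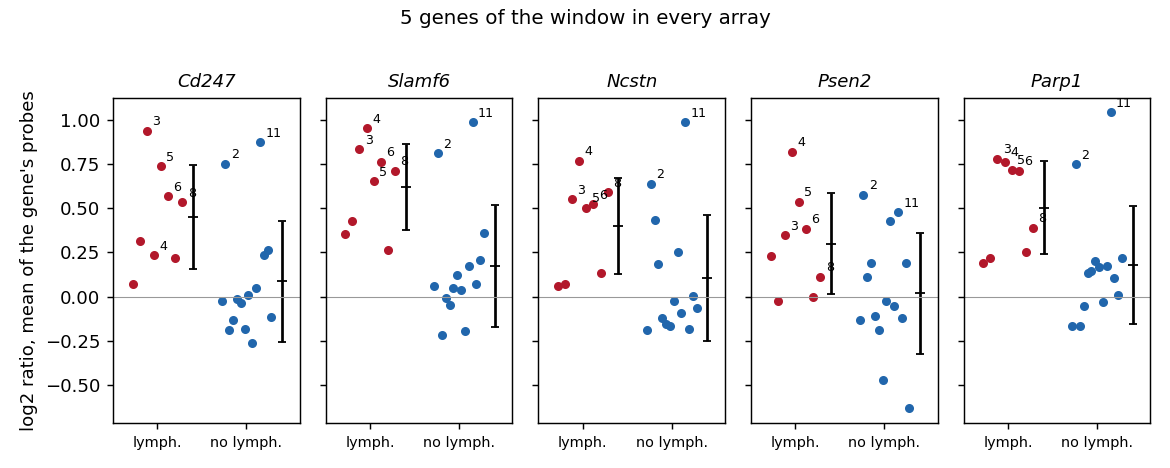
Log2 ratio of Cd247, Slamf6, Ncstn, Psen2 and Parp1 (mean of each gene's probes) in 8 lymphoma and 14 no-lymphoma arrays. Points are mice, with the number printed for the 7 arrays with a distal gain, and bars are mean and SD. No-lymphoma mice 2 and 11 reach the level of the gained lymphomas in all 5 genes, and lymphoma mouse 4 is low for Cd247 at 0.23.

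All 9 SLAM family genes lay in the core. These receptors sit on lymphocytes and pass signals between them through the adaptor SAP. Slamf6, with 4 probes, had the highest lymphoma mean of the 252 genes. It read 0.83, 0.95, 0.65, 0.76 and 0.71 in lymphoma mice 3, 4, 5, 6 and 8, but also 0.35, 0.43 and 0.27 in mice 1, 2 and 7, whose core means were near 0. No-lymphoma mice 11 and 2 read 0.99 and 0.81 and the others from -0.22 to 0.36, giving 0.62 ± 0.24 (SD, n = 8) against 0.17 ± 0.34 (SD, n = 14). Slamf1 read 0.51 ± 0.34 against 0.07 ± 0.40, Cd48, a ligand of the family, 0.44 ± 0.30 against 0.11 ± 0.32, and Cd84 0.42 ± 0.30 against 0.18 ± 0.34. The lymphoma means of Slamf7, Slamf8, Slamf9, Cd244a and Ly9 lay between 0.32 and 0.54.

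The 7 Fc receptor genes, whose products bind antibodies on myeloid and B cells, also all lay in the core, but 5 of them had only 1 or 2 probes. Fcgr4 with 3 probes read 0.41 ± 0.32 (SD, n = 8) against 0.18 ± 0.23 (SD, n = 14). Fcrla, with 3 probes, was low for the core at 0.16 ± 0.26 against 0.09 ± 0.35, and read 0.04 in lymphoma mouse 3 and 0.13 in mouse 6, both of which carry the gain there. Fcgr2b, Fcgr3, Fcer1a, Fcer1g and Fcrlb, with 1 or 2 probes each, had lymphoma means of 0.17 to 0.45.

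Of the 7 genes of selectins and T-cell ligands, none lay in the core. The selectin genes Selp and Sele and the chemokine gene Xcl1 were under a gain in 4 lymphoma arrays. Fasl (the Fas ligand), Tnfsf4 and Tnfsf18 were under one in 3, because the gain of lymphoma mouse 6 begins between these groups. Fasl read 0.18 in lymphoma mouse 6 against 0.97 and 0.71 in mice 3 and 5, and Selp read 0.42 against 0.34 and 0.60. Group values were 0.34 ± 0.22 (SD, n = 8) against 0.08 ± 0.41 (SD, n = 14) for Selp and 0.34 ± 0.35 against 0.20 ± 0.41 for Fasl. The lowest lymphoma mean of the list was 0.13, for Tnfsf4.

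Of the 15 measured transcription factor genes in the window, 3 (Mixl1, Usf1 and Nr1i3, each with 1 probe) lay in the core. Pou2f1, Lmx1a, Rxrg and Tbx19, before the start of the gain in lymphoma mouse 4, were under a gain in the other 4 gained lymphoma arrays, with lymphoma means of 0.20 to 0.36. Prox1, in the second gain of lymphoma mouse 4, read 0.44 there and 0.73, 0.44 and 0.54 in lymphoma mice 3, 5 and 6, but -0.18 in mouse 8, whose gain ends before it. Prrx1, Hlx and Esrrg were gained in 3 lymphoma arrays, with lymphoma means of 0.08 to 0.25.

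Of 16 measured genes of signalling and the cell cycle, 10 lay in the core. Exo1, an exonuclease of DNA repair, read 0.57, 0.55, 0.54, 0.45 and 0.49 in lymphoma mice 3, 4, 5, 6 and 8, and -0.01, -0.07 and 0.04 in mice 1, 2 and 7. Its group values were 0.32 ± 0.28 (SD, n = 8) against 0.18 ± 0.31 (SD, n = 14), and those of Nuf2, a kinetochore gene, were 0.26 ± 0.29 against 0.12 ± 0.23. Fh1, Rgs4, Rgs5, Ddr2, Adss, Aim2 and Ifi204, also in the core, had lymphoma means of 0.25 to 0.37. Lbr, Uck2, Traf5, Nek2 and Tgfb2 lay in the window outside the core, with lymphoma means of 0.25 to 0.48. Abl2, a kinase gene at 156527422, lies just before the gain of lymphoma mouse 3 begins, and read 0.26 there against 0.65 in mouse 5.

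Leaving aside clone and accession names, the 10 genes with the highest lymphoma means lay in the core except Fbxo28, an F-box gene beyond its end. After Slamf6 they were Vangl2 (planar cell polarity) at 0.61 ± 0.32, Lefty1 (an antagonist of Nodal) at 0.57 ± 0.29, Pfdn2 (a prefoldin subunit) at 0.53 ± 0.29, Slamf1, Fbxo28 at 0.51 ± 0.46, Parp1, Acbd3, Dedd and Coq8a. The no-lymphoma means of these 10 lay between 0.07 and 0.23. The 5 lowest with a gene name were Atf3, Cd46, Cr1l, Cr2 and Rrp15, at 0.03 to 0.08, and the lowest of all 252, a clone-named gene, read -0.04. Cd46, Cr1l and Cr2 encode regulators and receptors of complement and lie at the very end of the window, beyond the gains of lymphoma mice 4 and 8. In no-lymphoma mouse 11, whose gain ends before them, they read 0.19, 0.17 and 0.09, against 0.48, 0.40 and 0.35 in mouse 2, which is gained to the last probe.

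Small losses interrupted the window in 3 arrays. In lymphoma mouse 4 a loss over 11 probes, from 190651095 to 190723945, followed directly on the second gain, at -0.73 with single probes from -1.17 to -0.26. It spans Batf3, a transcription factor gene of T and dendritic cells, and the first probe of Atf3, a stress-response factor gene. Over these probes the other 21 arrays read -0.11 to 0.83, so lymphoma mouse 4 lay apart from all of them. In lymphoma mouse 6 the dip over Tmem63a, from 180928453 to 180953716, held 5 probes at -0.80 on average, which scattered from -1.71 to 0.74. In the array of no-lymphoma mouse 7 a loss over 12 probes, from 167088094 to 167209614, covered part of Uck2, a uridine kinase gene, with a mean of -0.53. No-lymphoma mouse 14, of the same scan batch, read -0.66 over the same probes, and the part of the batch in this was not tested.

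**Figure D5:**
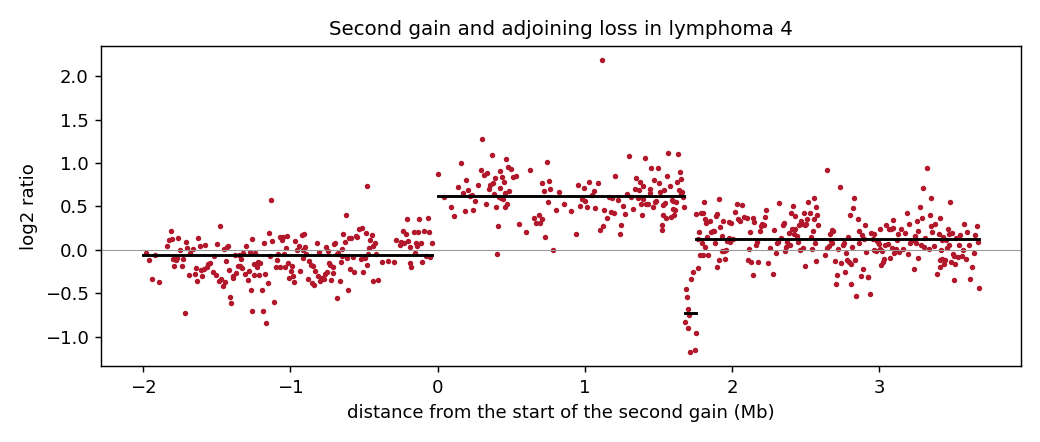
Log2 ratios of single probes in lymphoma mouse 4 against the distance from the start of its second gain (Mb). Black lines are segment means: 0.63 over the gain, -0.73 over the 11 probes of the loss that adjoins it, and near 0 on both sides. The loss lies at the end of the gain with no probe between them.

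Smaller steps of like shape ran along the window in several arrays, gained or not. Over 74 bins of 500 kb, lymphoma mice 2 and 7, neither with a gain, correlated at r = 0.92, lymphoma mice 2 and 5 at 0.86, no-lymphoma mice 7 and 14 at 0.87, and lymphoma mouse 1 and no-lymphoma mouse 2 at 0.83. The bins share probe GC content within an array and correlated with it at r = 0.48 in no-lymphoma mouse 2 and 0.39, 0.27, 0.37 and 0.24 in lymphoma mice 1, 2, 5 and 7. That correlation was -0.10 and -0.12 for no-lymphoma mice 7 and 14. Across all 231 pairs the median r was 0.16 and the lowest -0.54. These are descriptions over bins of the same chromosome, which are not independent. Slamf6 and Parp1 lay above their array's core mean in lymphoma mice 1, 2 and 7 as well, and the part of these steps in the gene values was not tested.

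Chromosome 1 before the window was not used in choosing it and was tested, but it is not free of the distal gain. Its median log2 ratio was -0.03 ± 0.03 (SD, n = 8) in lymphoma and 0.00 ± 0.02 (SD, n = 14) in no-lymphoma arrays, a difference of -0.03 (exact two-sided permutation test over 319770 splits, p = 0.0300). It was below 0 in 7 of 8 lymphoma and 10 of 14 no-lymphoma arrays. The median was 0.07 for no-lymphoma mouse 11, 0.02 for lymphoma mouse 8, 0.01 for no-lymphoma mouse 2 and -0.0001 for lymphoma mouse 5. On each of these arrays the distal gain began before the window, so part of it lay in the tested stretch. How far this shaped the difference was not tested. The difference was small beside the gains and of opposite sign to that over the window. The call was lost with the mean over probes in place of the median (-0.01, exact permutation p = 0.793) and with a block for the scan batch (-0.02, exact permutation p = 0.163). With centring on the mode the sign turned (0.01, exact permutation p = 0.782). Turned array signs kept the call, at -0.03 both for scan batch 2 (exact permutation p = 0.00839) and for no-lymphoma 3, 4 and 9 (exact permutation p = 0.00463). All p-values here rest on 1 array per mouse and hold for these mice only. They set a group difference against a spread in which mouse and array noise cannot be told apart.

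Genes of the same pathways on other chromosomes were compared in the limma fit. Of 43 tested members of the gamma-secretase and Notch, T-cell receptor and base excision repair lists outside the window, 5 passed as higher in lymphoma and 0 as lower, or 5 of 43 beside 6.67% of all genes. Notch1 on chromosome 2, the receptor that gamma-secretase cuts, differed by 0.70 ± 0.22 (SE; limma adjusted p = 0.0462), with 2.20, 1.76 and 0.89 in lymphoma mice 3, 1 and 2 and 0.08 to 0.32 in the others. The 3 arrays high for Notch1 thus include 1 with and 2 without the distal chromosome 1 gain. Mfng, which modifies Notch receptors, and Grap2, an adaptor of T-cell receptor signalling, both on chromosome 15, differed by 0.54 ± 0.12 (SE; limma adjusted p = 0.00556) and 0.48 ± 0.10 (SE; limma adjusted p = 0.00179). Csk, which restrains Lck, differed by 0.26 ± 0.08 (SE; limma adjusted p = 0.0348). Of the other gamma-secretase genes, Aph1b did not pass, at 0.12 ± 0.07 (SD, n = 8) against 0.05 ± 0.10 (SD, n = 14), while Psenen and Aph1a have 1 probe each. Of the 8 tested base excision repair genes 0 passed in limma, and 2 had an unadjusted p under 0.05. Over the 43 genes, unadjusted limma p-values under 0.05 numbered 11 in the higher and 0 in the lower direction, beside 26.1% of all genes in either direction. With the scan batch as a block 1 of the 43 passed, beside 2.88% of all genes, and with the sign of scan batch 2 turned or that batch left out 2 passed, beside 5.20% and 4.46%.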

How the data were processed

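The deposited scanner files hold the intensity of both channels of each spot; their processed signals are background-subtracted and dye-normalised by Agilent Feature Extraction 9.1.3.1, per the file headers. The deposited value table holds the log10 ratio of red over green per the file headers, and was used as an alternative. Log2 ratios were taken from the processed intensities, leaving out spots flagged as outliers and averaging repeat spots; the autosomal median of each array was then set to 0, without loess or quantile steps.

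Arrays were segmented by least-squares optimal partitioning (Python 3.11.15, numpy 2.4.6, numba 0.67.0; penalty per break 3 noise variances, scaled by the logarithm of how many probes there were, at least 5 probes per segment, gain at 0.25 or more, loss at the same size below 0; probes over 4 noise SD from a running median of 7 were set to that limit). Probes were averaged per gene, and limma 3.58.1 (R 4.3.3; lmFit, eBayes) compared the groups over all 12974 genes with at least 3 probes, with Benjamini-Hochberg adjustment. The segmentation and the limma fit were tested on simulated data with independent normal noise, without the scan batches and shared steps of these arrays. Gene names in the array files were brought up to date with RefSeq's gene table (GRCm38.p6), which served for names only.

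Named are the 4 genes of the region's definition, every measured member of the gene lists in the window, the 10 highest and 5 lowest by lymphoma mean, genes at the ends of gains, and list genes elsewhere that passed limma. Region, members and lists were chosen with earlier results of these data known. Listed genes not analysed here were Maml2, Dll4, Jag2, Ptprc, Cd8a, Atf6, Cenpf and Mnda. Values of some listed genes are not reported here. Replicate numbers follow accession order and pair nothing. Planned normexp used median spot signals (offset 50), as mean signals were not used here. A planned test of chromosome 1 beyond the window could not be run, since 0 probes lie there. The number of arrays limits the precision.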

Additional observations from a re-analysis of the deposited data

Results flagged for a closer look

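Of 62 values checked within groups for a mouse far from the others, 1 stood out, and chance alone marks about 1 in 20 such groups. Lymphoma mouse 8 had a chromosome 15 median of 0.15, against 0.42 to 0.57 in the other 7 lymphoma mice. The same mouse had the stepwise gain of distal chromosome 1, with the lowest core mean of the gained arrays at 0.45.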

How the results depend on the processing

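The lymphoma minus no-lymphoma difference over the distal window (0.18) kept its sign in 16 of 17 alternatives and without each array in turn (0.13 to 0.23), and was -0.29 within scan batch 1. Within that batch the difference was -0.18 for Ncstn, -0.11 for Psen2, -0.17 for Parp1 and -0.34 for Cd247; it was -0.000377 for Psen2 in batch 6 and -0.10 for Parp1 in batch 5. The core was gained in 5 lymphoma arrays under all alternatives except normexp (6). Window genes called by limma (1, a description, since the window was chosen on this contrast) numbered 2 with the median of probes or mode centring and 7 with the signs of no-lymphoma 3, 4 and 9 turned, where 6.82%, 7.66% and 8.70% of all genes were higher. They numbered 0 under normexp, without scan batch 2 and without no-lymphoma 3, 4 and 9. They also numbered 0 without the noisiest array of each group and with the batch as a block. In that order, 4.40%, 4.46%, 5.96%, 5.13% and 2.88% of all genes were called higher there. An unadjusted limma p under 0.05 was found for 45, 15, 27, 14 and 1 of the 252 window genes. These counts hold both directions and cannot be set beside those shares, as 26.1% of all genes had such a p in the main fit. Batches 1, 5 and 6 each have 1 array in a group, so no counts within them are given. Pathway genes outside the window called by limma (5) numbered 2 with the median of probes and 2 under normexp, beside 6.82% and 4.40% of all genes called higher. With scan batch 2 left out or turned they numbered 2, beside 4.46% and 5.20%. They numbered 3 without the noisiest arrays, 1 with the block and 2 within batch 3, beside 5.13%, 2.88% and 3.02%. The left-out, turned and within-batch settings were added for these genes after the data were seen. The proximal difference (-0.03) was -0.0067 with the mean over probes, -0.0246 when centred off chromosome 1 (exact permutation p = 0.0652), -0.0235 with the block and 0.00689 with mode centring. Leaving out 1 array gave -0.0321 to -0.0196 (exact permutation p = 0.00217 to 0.0904), and the call was lost without lymphoma mouse 1, 2, 4 or 7. The cause of these changes was not tested. Mode and median of an array differed by up to 0.10, in lymphoma mouse 3. No paired analysis was possible because replicate numbers were given in accession order. The test beyond the window was not run. The noise of no-lymphoma 3, 4 and 9 limits what short segments can show there.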

Other observations

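Before the window, chromosome 1 carried further gains in some arrays. In lymphoma mouse 3 a stretch from 47544488 to 56354112, with 610 probes, read 1.33, more than its distal gain at 0.61. In no-lymphoma mouse 2 a short stretch from 88116893 to 88211995, from Ugt1a10 (a glucuronosyltransferase gene) to Trpm8 (the cold-sensing channel gene), read 1.10 over 17 probes.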
